A study of Arabidopsis with 8 samples.

Results

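The genes described here are 10 loci of the salicylic acid (SA) pathway of Arabidopsis thaliana. They are 2 genes of SA synthesis and export (ICS1, EDS5), 3 genes of the EDS1 node (EDS1, PAD4, SAG101), the SA receptor NPR1, the transcription factor WRKY70 and 3 pathogenesis-related genes (PR1, PR2, PR5). The genes were chosen by locus, and a probe was given to a locus by its RefSeq accession in the scanner files. All 10 loci had a tested probe, of 21520 loci tested in all. Leaves of 2 ecotypes were compared: Sha (Shahdara) after salt, Sha without salt, Ler (Landsberg erecta, which carries the erecta mutation) after salt and Ler without salt. At 10 days of age the seedlings of all 4 groups went onto fresh MS plates, with 100 mM NaCl for salt and none for controls, and leaves were taken 4 days later. Each group had 2 biological replicates, and each RNA came from the leaves of at least 30 seedlings, so a value is an average over many plants. Each RNA was labelled with Cy3 and read on 1 Agilent array, which gives 8 arrays in all. The study asked how Sha, the more salt-tolerant ecotype, differs from Ler in its response to salt.

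SA is a plant hormone of defence against biotrophic pathogens. Most of it is made from isochorismate, which is formed in the chloroplast and exported by EDS5. The lipase-like protein EDS1 pairs with PAD4 or with SAG101 to relay signals from immune receptors and to raise SA synthesis. SA is bound by NPR1, a coactivator that works with TGA transcription factors at the promoters of defence genes, and PR1, PR2 and PR5 are the standard transcript markers of that output. WRKY70 is induced through SA and is known as a node between SA and jasmonate responses. Salt responses in leaves are carried largely by abscisic acid, which is known to act against SA signalling.

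Signals are given as log2 of the processed signal minus the 75th percentile of the same array, so that 0 is the 75th percentile of all probes on an array. A level is read only within a probe, because probes differ in how strongly they bind. Arrays differed in brightness, and their 75th percentile was between 58.2 (Ler control replicate 1) and 136.7 times the local background. The median SD between the replicates of a group was 0.082 to 0.094 on the log2 scale. A gene rose or fell where the limma adjusted p (Benjamini-Hochberg over 34659 probes) was under 0.05, and it was called where the change was also more than 2-fold. Each slide carried 1 ecotype, with a salt array and a control array of the same replicate number. For salt, the difference within a replicate is thus a difference within a slide. All replicate 1 arrays were scanned on 1 day, and replicate 2 arrays of Ler and of Sha on 2 other days.

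The samples were checked against marker genes. The 5 leaf markers (RBCS1A, RCA, LHCB2.1, LHCA1, CA1) were well above background on all 8 arrays. Their summed signal, with the 75th percentile set to 1, was 217 to 252 in Sha with salt, against 331 to 441 in Sha without. In Ler it was 193 to 214 with salt and 457 to 706 without. The 6 root markers (EXPA7, COBL9, PRP3, IRT1, CASP1, TIP2;3) were also well above background on all 8 arrays, although the labels give leaf. Their summed signal was 2.02 to 2.16 with salt against 12.9 to 13 without salt in Sha. It was 2.34 to 2.54 with salt against 11.9 to 12.5 without salt in Ler. Of 2 markers of senescing leaves, SAG12 was not well above background on both arrays of any group. The summed level of the other, SAG13, was 9.47 to 9.5 with salt and 0.0934 to 0.105 without salt in Sha. In Ler it was 15.4 to 15.9 with salt and 1.55 to 1.64 without. These sums moved with salt, and the arrays of Sha and Ler did not overlap in any of them, with or without salt. In the presence of salt, the leaf marker CA1 was called higher in Sha (1.25, limma adjusted p = 0.0014) and the root marker EXPA7 lower (-1.41, adjusted p = 6.6e-05). The other leaf markers did not pass the test, with RBCS1A at 0.28, RCA at 0.23, LHCB2.1 at 0.26 and LHCA1 at -0.05. The root markers COBL9, PRP3 and IRT1 also had lower means with salt in Sha (-2.05, -3.03 and -3.96) than in Ler (-1.25, -2.26 and -3.34). CASP1 and TIP2;3 had higher means in Sha (-0.42 and -0.32) than in Ler (-0.60 and -0.40). The part of these markers in the differences given next was not tested. In whole leaves, fewer cells that express a gene and less RNA per cell cannot be told apart.

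More of the 10 genes were called between the ecotypes than with salt. In the presence of salt, 4 of 10 were called lower in Sha than in Ler (WRKY70, PR1, PR2 and PR5) and 0 higher, where 8.31% of all tested loci were called lower and 5.86% higher. In the absence of salt the same 4 genes were called lower in Sha and 0 higher, where 6.87% of all loci were called lower and 5.09% higher. The median log2 difference of the 10 genes was -0.80 with salt and -0.76 without, and that of all loci was -0.02 and -0.01. Salt gave 1 called gene in Sha, WRKY70, which was lower, where 17.9% of all loci were called lower and 14.1% higher. In Ler, EDS1 and WRKY70 were called lower with salt, 2 of 10 genes, where 15.6% of all loci were called lower and 13.1% higher. The shares called lower with salt were near those of all loci for a list of 10 genes, and 0 were called higher in either ecotype. The median log2 change with salt was -0.53 in Sha and -0.18 in Ler, against -0.09 and -0.08 over all loci. The salt response itself differed between the ecotypes for PR5 and WRKY70, which were called lower in Sha minus Ler, where 4.74% of all loci were called lower and 4.02% higher. With no limit on the fold, 8 of 10 genes passed the test as lower in Sha and 1 as higher in the presence of salt, against 26.3% and 22.2% of all loci. Without salt, 8 genes passed as lower and 0 as higher, against 22.6% and 21.5%. With salt, 6 genes fell and 1 rose in Sha, against 39.2% and 30.7% of all loci. In Ler 5 genes fell and 2 rose, against 36.7% and 30.0%. The difference of the responses passed as lower for 3 genes and as higher for 2, against 14.1% and 11.5%. The comparisons share arrays, so their counts are not independent of each other. With the slide as a block, no call of the 10 genes changed. The log2 differences could not change, since each slide held a salt and a control array of 1 ecotype. No slide held both ecotypes, so Sha and Ler could not be compared within a slide.

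**Figure D1:**
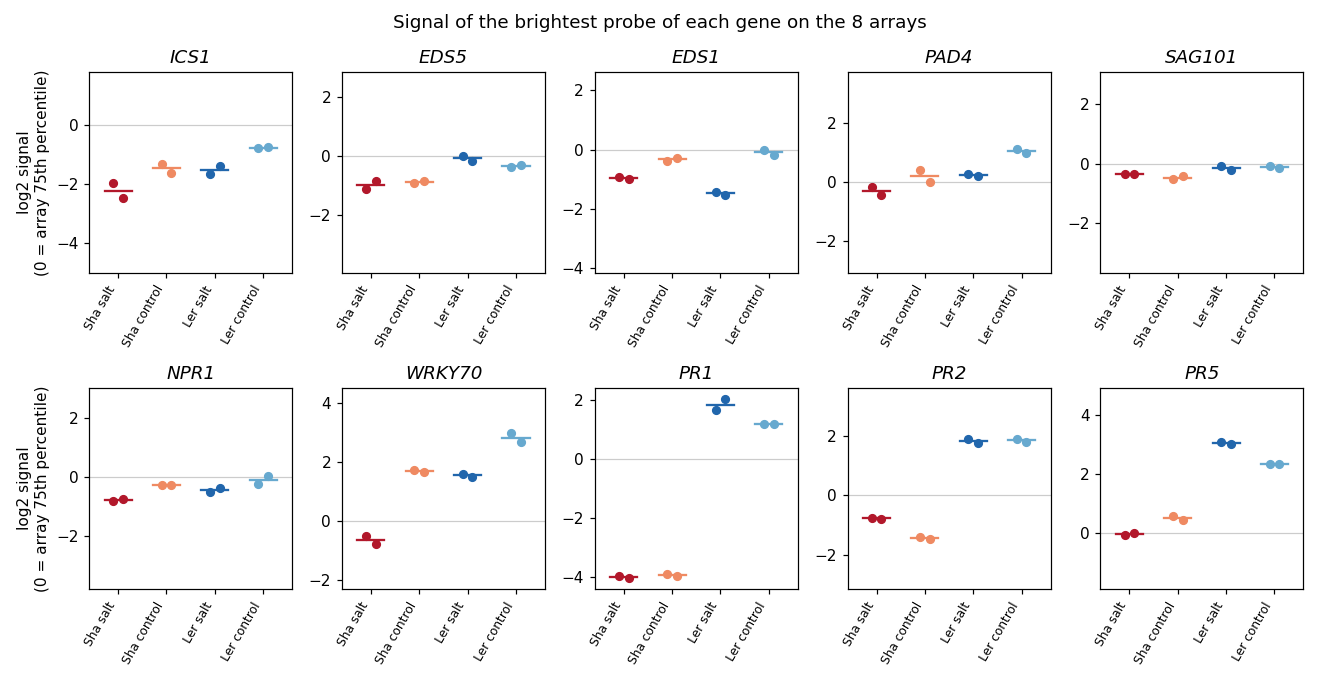
The log2 signal of the brightest probe of each of the 10 genes on the 8 arrays, where 0 is the 75th percentile of an array, points are single arrays and lines are group means. Every panel spans the same number of log2 units, and WRKY70, PR1, PR2 and PR5 show the widest spread of group means, 3.46, 5.83, 3.31 and 3.08.

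**Figure D2:**
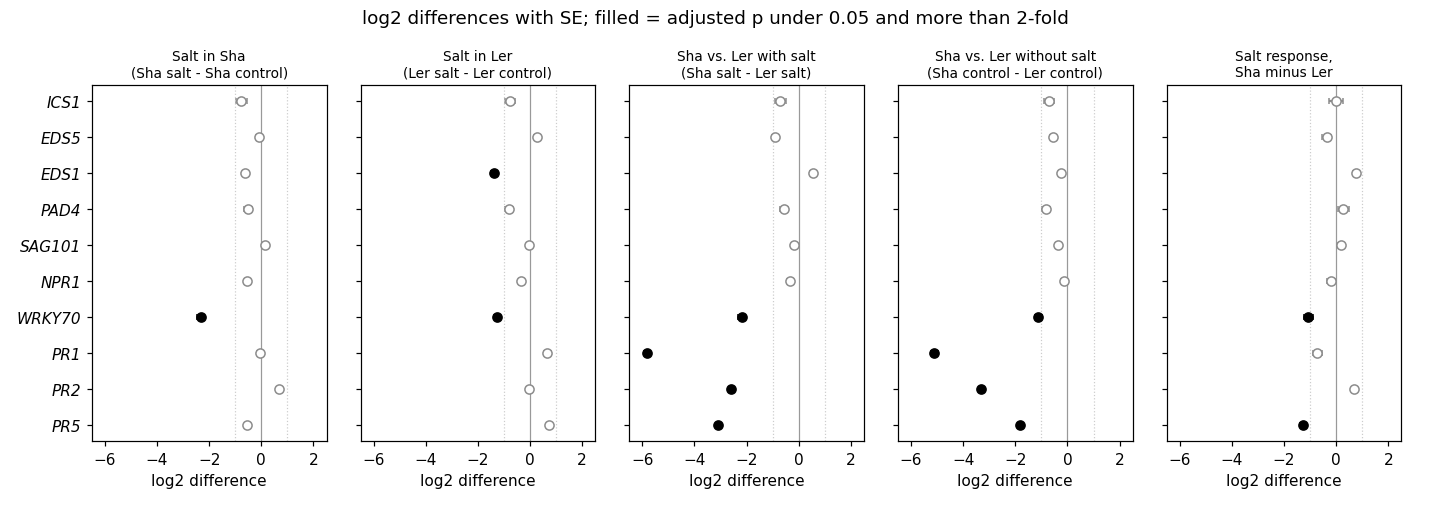
The log2 differences of the 10 genes in the 5 comparisons, with bars for the SE of the limma fit and filled points for genes past an adjusted p of 0.05 and a change of more than 2-fold. Filled points lie to the left of 0 in each panel, with 1 gene for salt in Sha, 2 for salt in Ler, 4 for Sha vs. Ler with salt and 4 without.

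ICS1 (AT1G74710) encodes isochorismate synthase, the enzyme that commits chorismate to SA. Its log2 signal was -1.97 and -2.47 in Sha with salt, -1.31 and -1.61 in Sha without, -1.65 and -1.39 in Ler with salt, and -0.79 and -0.74 in Ler without. Both salt-treated groups lay below their controls and did not overlap them. ICS1 fell by 0.76 on the log2 scale with salt in Sha (SE 0.20, n = 2, limma adjusted p = 0.015) and by 0.76 in Ler (SE 0.20, adjusted p = 0.016). These were changes of 1.69-fold, below the 2-fold limit. Sha was lower than Ler by a log2 difference of -0.70 with salt (adjusted p = 0.030) and -0.70 without (adjusted p = 0.032), with the arrays apart in both conditions. The responses to salt had a difference of -0.00 (SE 0.28, adjusted p = 1.0). ICS1 was among the less even genes, with an SD of 0.36 between the Sha salt arrays, and its difference between ecotypes with salt was -0.32 over the replicate 1 arrays and -1.08 over the replicate 2 arrays. Without Sha salt replicate 1, ICS1 was called lower with salt in Sha, at -1.01 (adjusted p = 0.0054). The second ICS1 probe gave -0.66 and -0.76 for salt in Sha and in Ler, and -0.72 and -0.81 for Sha vs. Ler with and without salt, and all 4 values passed the test. The ICS1 results depended on single arrays and on the processing. The fall in Sha did not pass without Sha control replicate 1 or Sha salt replicate 2 (adjusted p up to 0.077). The fall in Ler did not pass with normexp, nor without either Ler control array or Ler salt replicate 1 (up to 0.084). Sha vs. Ler with salt was lost when any Ler array or Sha salt replicate 2 was left out. It was also lost with no background filter and in the fit of only the arrays compared. Sha vs. Ler without salt was lost when either Ler control array or Sha control replicate 2 was left out, with normexp, and with no background filter.

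EDS5 (AT4G39030), the transporter that takes SA precursor out of the chloroplast, differed by ecotype. Its log2 signal was -1.11 and -0.82 in Sha with salt and -0.90 and -0.83 in Sha without, which overlapped. In Ler it was 0.02 and -0.15 with salt and -0.36 and -0.28 without. Each Ler group lay above each Sha group. Sha was lower by 1.87-fold with salt (log2 difference -0.90, SE 0.12, adjusted p = 0.0017) and by 1.46-fold without (log2 difference -0.55, adjusted p = 0.014). Leaving out Sha salt replicate 2 moved the first of these past 2-fold, to -1.05 (adjusted p = 0.0024). The salt changes of -0.10 in Sha (adjusted p = 0.48) and 0.26 in Ler (adjusted p = 0.10) did not pass the test. Sha vs. Ler without salt did not pass without Ler control replicate 2, Sha control replicate 1 or Sha control replicate 2 (adjusted p up to 0.063). The second probe gave -0.20 in Sha (adjusted p = 0.13) and 0.29 in Ler (adjusted p = 0.046) for salt, and -0.80 and -0.31 for Sha vs. Ler with and without salt (adjusted p = 0.0015 and 0.055).

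EDS1 (AT3G48090), the central protein of the node, fell with salt in both ecotypes, and its fall was larger in Ler by the test of the difference. Its brightest probe had log2 signals of -0.91 and -0.99 in Sha with salt, against -0.39 and -0.27 in Sha without. In Ler the signals were -1.44 and -1.52 with salt, against -0.02 and -0.17 without. Ler with salt was the lowest group and Ler without salt the highest, and no neighbouring groups overlapped. EDS1 was called lower with salt in Ler, by 2.62-fold (log2 change -1.39, SE 0.09, adjusted p = 4e-05), and the change was -1.42 on the replicate 1 slide and -1.36 on the replicate 2 slide. In Sha it fell by 1.54-fold (log2 change -0.63, adjusted p = 0.0011). The fall was smaller in Sha, with a difference of the responses (Sha minus Ler) of 0.76 (SE 0.12, limma adjusted p = 0.010), short of 2-fold. This difference did not pass with normexp background correction (adjusted p = 0.28). Sha was 0.53 above Ler with salt (adjusted p = 0.0042) and -0.23 from it without salt, where the test was not passed (adjusted p = 0.076). The other 2 EDS1 probes were called lower with salt in Ler as well, at -1.25 and -1.41. They differed from each other in the size of the difference between responses, 0.51 (adjusted p = 0.089) and 1.04 (adjusted p = 0.010, called). With normexp the fall in Sha (adjusted p = 0.071) and the difference of 0.53 between ecotypes with salt (adjusted p = 0.29) no longer passed the test. EDS1 has a near-identical neighbour, EDS1B (AT3G48080). The EDS1B probe was at background on both Sha control arrays, where the EDS1 probes were well above it, and whether the EDS1 probes also read EDS1B was not tested.

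PAD4 (AT3G52430), a partner of EDS1 in raising SA, was lower in both salt-treated groups and lower in Sha. The brightest probe had log2 signals of -0.17 and -0.44 in Sha with salt, and 0.42 and 0.02 in Sha without. In Ler it had 0.28 and 0.21 with salt, and 1.11 and 0.99 without. Ler without salt stood above the other groups, and Ler with salt overlapped Sha without salt. PAD4 fell by 0.52 with salt in Sha (SE 0.15, adjusted p = 0.025) and by 0.80 in Ler (adjusted p = 0.0049). Sha was lower than Ler by a log2 difference of -0.55 with salt (adjusted p = 0.031) and -0.83 without (adjusted p = 0.0082). The difference of the responses was 0.28 (SE 0.22, adjusted p = 0.39). None of these changes reached 2-fold, though Sha vs. Ler without salt was called at -1.02 (adjusted p = 0.0075) when Sha control replicate 1 was left out. A second probe gave the same directions, with salt changes of -0.68 and -0.80 in Sha and in Ler. The third and dimmest probe stood apart, since its Sha salt arrays were -3.18 and -5.15, an SD of 1.4, and none of its differences passed the test. Averaged over its probes, PAD4 passed neither for salt in Sha (adjusted p = 0.54) nor for Sha vs. Ler with salt (adjusted p = 0.73). The fall in Sha was also lost in the fit of only the arrays compared, and without Sha control replicate 1 or Sha salt replicate 2. Sha vs. Ler with salt was also lost with normexp and with no background filter. Leaving out either Ler salt array or Sha salt replicate 2 lost it as well.

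SAG101 (AT5G14930), the other partner of EDS1, had group means within 0.36 of each other on its brightest probe. That probe had -0.34 and -0.35 in Sha with salt, -0.52 and -0.43 in Sha without, -0.08 and -0.23 in Ler with salt, and -0.09 and -0.15 in Ler without. Sha lay below Ler in both conditions, and the 2 Ler groups overlapped. Neither salt change passed the test, with 0.13 in Sha (adjusted p = 0.20) and -0.04 in Ler (adjusted p = 0.68). Sha vs. Ler was -0.19 with salt (limma adjusted p = 0.10) and -0.36 without (adjusted p = 0.015). The difference without salt was lost with normexp and with the mean of the SAG101 probes. It was also lost without Ler control replicate 1 or Sha control replicate 1. The probes of SAG101 disagreed on ecotype. A second probe gave -0.48 with salt and -0.72 without (adjusted p = 0.0045 and 0.0011), whereas the third, which the array files give under another RefSeq accession, gave 0.69 and 0.40 (adjusted p = 0.013 and 0.080).

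**Figure D3:**
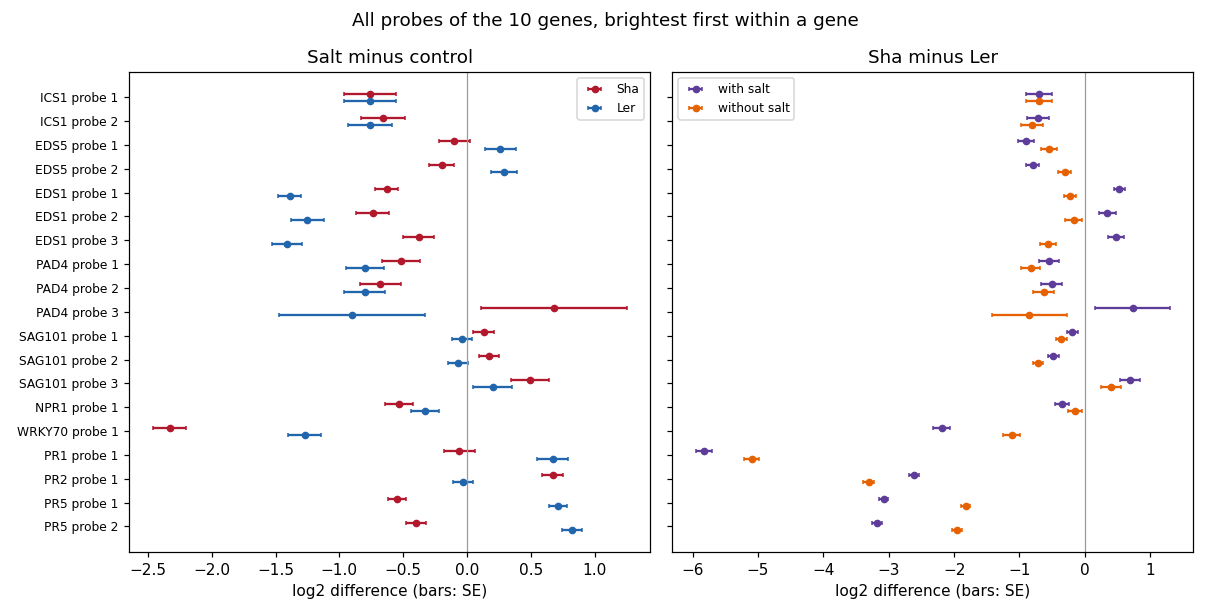
The log2 differences of all 19 probes of the 10 genes, ordered from the brightest within a gene, with SE bars, for salt minus control on the left and Sha minus Ler on the right. The third PAD4 probe, whose SE is 0.57, and the third SAG101 probe, on the other side of 0 in the right panel, stand away from the other probes of their genes.

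NPR1 (AT1G64280), whose regulation is known to rest largely on the protein, had group means within 0.68 of each other. Its log2 signal was -0.81 and -0.75 in Sha with salt, -0.25 and -0.25 in Sha without, -0.50 and -0.36 in Ler with salt, and -0.24 and 0.03 in Ler without. Sha with salt was the lowest group and overlapped no other. NPR1 fell by 0.53 with salt in Sha (SE 0.11, adjusted p = 0.0058) and by 0.33 in Ler (adjusted p = 0.039). Sha was -0.35 from Ler with salt (adjusted p = 0.042) and -0.15 without, where the test was not passed (adjusted p = 0.30). The difference between the salt responses was -0.20 (adjusted p = 0.37). The fall in Sha passed under all 19 alternatives run (adjusted p up to 0.032). The fall in Ler was lost under 11 of them, with 7 of the 8 arrays left out in turn, all but Ler control replicate 1 (up to 0.17). Sha vs. Ler with salt was also lost under 11, with 6 of the arrays left out, all but the Ler control arrays (up to 0.18).

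WRKY70 (AT3G56400) was the only 1 of the 10 genes that was called in all 5 comparisons. Its log2 signal was -0.51 and -0.77 in Sha with salt, against 1.72 and 1.67 in Sha without. In Ler it was 1.60 and 1.5 with salt, against 2.97 and 2.67 without. The 4 groups were apart, with Ler without salt highest and Sha with salt lowest, and salt-treated Ler lay just below untreated Sha. Salt lowered WRKY70 by 5.04-fold in Sha (log2 change -2.33, SE 0.13, adjusted p = 2.3e-05) and by 2.41-fold in Ler (log2 change -1.27, SE 0.13, adjusted p = 0.00034). Within the slides the changes were -2.23 and -2.44 in Sha, and -1.37 and -1.17 in Ler. Sha was 4.55-fold lower than Ler with salt (log2 difference -2.19, adjusted p = 8.9e-05) and 2.18-fold lower without (log2 difference -1.12, adjusted p = 0.0015). Over the replicate 1 arrays alone, all scanned on 1 day, these differences were -2.11 and -1.25. The fall was larger in Sha, with a difference of the responses (Sha minus Ler) of -1.06 (SE 0.19, limma adjusted p = 0.013), a value just past 2-fold. That call was lost without Ler control replicate 2 (-0.91), without Ler salt replicate 1 (-1.01, adjusted p = 0.052) and without Sha salt replicate 2 (-0.93), and with normexp background correction (-0.96, adjusted p = 0.091). The call for Sha vs. Ler without salt was lost without Ler control replicate 1, at -0.97 (adjusted p = 0.0075). A single probe stands for WRKY70, as for NPR1, PR1 and PR2.

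PR1 (AT2G14610), the secreted antimicrobial protein whose transcript is the usual readout of SA signalling, showed the widest gap between ecotypes among the 10 genes. Its log2 signal was -3.96 and -4.03 in Sha with salt and -3.90 and -3.97 in Sha without. In Ler it was 1.65 and 2.01 with salt, and 1.16 and 1.16 without. PR1 was thus low in Sha in both conditions, and the Sha groups overlapped, while both Ler groups stood far above them and apart from each other. All 8 arrays were well above background for this probe. Sha was 56.8-fold lower than Ler with salt (log2 difference -5.83, SE 0.12, adjusted p = 4.2e-06) and 34.2-fold lower without (log2 difference -5.10, SE 0.12, adjusted p = 6.2e-06). Within the arrays scanned on 1 day, replicate 1, the differences were -5.61 and -5.07. Salt raised PR1 by 1.59-fold in Ler (log2 change 0.67, SE 0.12, adjusted p = 0.0041), with 0.49 on the replicate 1 slide and 0.85 on the replicate 2 slide. In Sha the change of -0.06 did not pass the test (SE 0.12, adjusted p = 0.68). The responses differed by -0.73 (SE 0.17, limma adjusted p = 0.032), short of 2-fold. This did not pass when any Sha array or either Ler control array was left out. It was also lost with no background filter and with normexp (adjusted p = 0.28).

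PR2 (AT3G57260), a beta-1,3-glucanase also known as BGL2, was likewise lower in Sha. Unlike that of PR1, its salt change passed the test in Sha and not in Ler. The log2 signal was -0.75 and -0.78 in Sha with salt, against -1.41 and -1.46 in Sha without. In Ler it was 1.91 and 1.78 with salt and 1.92 and 1.82 without, and these overlapped. PR2 was 6.10-fold lower in Sha than in Ler with salt (log2 difference -2.61, SE 0.08, adjusted p = 8.8e-06) and 9.90-fold lower without (log2 difference -3.31, adjusted p = 6e-06). The replicate 1 arrays gave -2.66 and -3.33. It rose by 1.59-fold with salt in Sha (log2 change 0.67, SE 0.08, adjusted p = 0.00049), while the change of -0.03 in Ler did not pass the test (adjusted p = 0.79). The difference of the responses was 0.70 (SE 0.11, adjusted p = 0.0096), short of 2-fold and opposite in sign to that of PR1. It did not pass with normexp (adjusted p = 0.094).

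PR5 (AT1G75040), a thaumatin-like protein, moved in opposite directions with salt in the 2 ecotypes. Its brightest probe had log2 signals of -0.07 and -0.01 in Sha with salt, against 0.57 and 0.45 in Sha without. In Ler it had 3.07 and 3.0 with salt, against 2.34 and 2.32 without. All 4 groups were apart, with salt-treated Ler highest and salt-treated Sha lowest. PR5 fell by 0.55 in Sha (limma adjusted p = 0.00098, SE 0.07) and rose by 0.71 in Ler (SE 0.07, adjusted p = 0.00035), each under 2-fold, and both slides of an ecotype gave the same sign. The difference of the responses was -1.26 (SE 0.11, adjusted p = 0.0017), which was called. Sha was 8.44-fold lower than Ler with salt (log2 difference -3.08, adjusted p = 5.5e-06) and 3.53-fold lower without (log2 difference -1.82, adjusted p = 2.4e-05). The second PR5 probe gave -0.40 in Sha and 0.82 in Ler for salt, -3.18 and -1.96 for Sha vs. Ler with and without salt, and -1.22 for the difference of the responses, and the last 3 of these were called. The 3 PR genes thus shared a lower level in Sha in both conditions and differed in their response to salt. Whether Sha and Ler differ in sequence under these probes was not tested.

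A wider list of 47 genes of SA synthesis, signalling, modification and output was examined next, and 46 of them had a tested probe. In the presence of salt, 13 of 46 were called lower in Sha than in Ler and 0 higher, where 8.31% and 5.86% of all loci were. Without salt, 10 were called lower and 1 higher, where 6.87% and 5.09% of all loci were. The median log2 difference was -0.51 with salt and -0.62 without, against -0.02 and -0.01 over all loci. With salt, 13 were called higher and 4 lower in Sha, where 14.1% and 17.9% of all loci were. In Ler 12 were called higher and 5 lower, where 13.1% and 15.6% of all loci were. The median salt changes were 0.23 in Sha and 0.25 in Ler, against -0.09 and -0.08 over all loci. The difference of the responses was called for 5 genes (10.9%), with 1 higher and 4 lower, where 4.02% of all loci were called higher and 4.74% lower, so these counts were near those of all loci.

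Among genes of synthesis, SARD1 and CBP60g, which encode the transcription factors that switch on ICS1, were called higher with salt in both ecotypes. SARD1 rose by 1.82 in Sha and by 1.26 in Ler on the log2 scale, and CBP60g by 1.62 and 1.16. ICS1 itself fell in both ecotypes, as given above. PBS3, the enzyme that conjugates glutamate to isochorismate, rose by 0.97 in Sha (limma adjusted p = 0.0018), under 2-fold, and by 1.59 in Ler, where it was called. Its second probe rose by 0.70 and 1.94. Only that probe was called for the difference of the responses, at -1.24 (adjusted p = 0.025). Of the 4 phenylalanine ammonia lyases, PAL3 was called lower with salt, by -3.68 in Sha and -2.78 in Ler. PAL1 and PAL2 fell by 0.66 and 0.49 in Sha and by 0.34 and 0.66 in Ler. A second PAL1 probe gave -0.37 in Sha (limma adjusted p = 0.035) but 0.25 in Ler, which did not pass (adjusted p = 0.11). PAL4 had changes of 0.05 and 0.19 that did not pass the test. In Sha vs. Ler, 4 genes of synthesis were called lower with salt, ICS2 (-1.86), PBS3 (-1.43), PAL3 (-1.38) and CBP60g (-1.36). Without salt, CBP60g (-1.82) and SARD1 (-1.45) were.

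FMO1, ALD1 and SARD4 make N-hydroxypipecolic acid, the signal of systemic acquired resistance. FMO1, the monooxygenase of the last step, had log2 signals of -4.27 and -4.15 in Sha with salt, against -6.87 and -7.38 in Sha without. In Ler it had 1.57 and 1.5 with salt, against -2.57 and -2.63 without. FMO1 rose by 2.92 in Sha and by 4.13 in Ler. It was lower in Sha by -5.75 with salt (SE 0.16, limma adjusted p = 8.3e-06) and by -4.53 without. Its response was lower in Sha by -1.22 (adjusted p = 0.017), with -1.53 over the replicate 1 arrays and -0.90 over the replicate 2 arrays. All 8 arrays were well above background for FMO1, but its signals in Sha without salt were dim, down to a raw signal of 25.1. ALD1, the aminotransferase of the first step, had -5.82 and -5.90 in Sha with salt, against -3.25 and -3.54 in Sha without. In Ler it had -2.29 and -2.29 with salt and -2.59 and -2.83 without. ALD1 fell by 2.46 in Sha and rose by 0.42 in Ler (adjusted p = 0.029), and the difference of the responses was -2.89 (SE 0.18, adjusted p = 0.00078). SARD4, the reductase between them, rose by 1.65 in Sha and 1.59 in Ler.

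Genes that modify SA held the largest salt change of the wider list. BSMT1, which methylates salicylate and benzoate, had log2 signals of 2.73 and 2.81 in Sha with salt, against -6.99 and -6.73 in Sha without. In Ler it had 3.08 and 3.04 with salt, against -6.87 and -6.73 without, where 1 of 2 arrays was well above background. The values set against Ler without salt thus rest in part on a signal at background. Both arrays of Sha without salt were well above background, but at a similar log2 level, so the rise in Sha is also set against a dim signal. BSMT1 rose by 9.63 in Sha (limma adjusted p = 4.5e-07, SE 0.11) and 9.86 in Ler (adjusted p = 5.6e-07). The responses had a difference of -0.23 (adjusted p = 0.31). MES9, which turns methyl salicylate back into SA, rose by 1.25 in Sha and 1.59 in Ler. UGT74F2, a glucosyltransferase of SA, rose by 1.64 and 2.29, and was the 1 gene called higher in Sha without salt, at 1.11 (adjusted p = 6.7e-05). DLO1, an SA hydroxylase, had -1.0 and -1.0 in Sha with salt against -2.63 and -2.60 without, but -1.56 and -1.52 in Ler with salt against -0.03 and -0.01 without. DLO1 thus rose by 1.62 in Sha and fell by 1.52 in Ler, and the difference of the responses was 3.14 (SE 0.09, adjusted p = 0.00012).

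Among the signalling genes, 0 of 6 TGA factors were called in any comparison by limma. For salt in Sha, 3 passed the adjusted p alone as higher (TGA3, TGA5 and TGA6, at 0.23, 0.51 and 0.27) and 2 as lower (TGA1 and TGA4, at -0.22 and -0.59), where 30.7% and 39.2% of all loci did. NIMIN1, which binds NPR1 and restrains it, was called lower in Sha by -2.71 with salt and -2.49 without. NIMIN2 was called lower in Sha with salt, at -1.68. NPR4, an SA receptor that represses defence genes, was called lower with salt in Ler, at -1.29, and fell by 0.79 in Sha. ADR1, a helper immune receptor that works with EDS1 and PAD4, rose by 1.04 in Sha and 0.94 in Ler. EDS1B was at background on both Sha control arrays and was at least 15.1-fold lower in Sha than in Ler without salt (adjusted p = 0.0067). With salt, 1 of 2 Sha arrays was well above background, with -9.78 and -6.08 in Sha against -5.20 and -5.05 in Ler, and the test was not passed (adjusted p = 0.084).

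The nearest relative of WRKY70, WRKY54, had the same order of groups. Its log2 signal was -4.75 and -5.11 in Sha with salt against -1.86 and -1.91 without, and -2.63 and -2.68 in Ler with salt against -0.99 and -1.05 without. It fell by 3.04 in Sha and by 1.63 in Ler, and the difference of the responses was -1.41 (adjusted p = 0.0048). WRKY18 and WRKY46, in contrast, rose in both ecotypes, WRKY18 by 2.88 in Sha and 2.06 in Ler, and WRKY46 by 1.40 and 1.47. WRKY38 was lower in Sha by -2.29 with salt and -1.91 without. Of the other outputs, PRB1, a basic relative of PR1, fell by 4.28 with salt in Sha, where 1 of 2 salt arrays was well above background, and by 1.60 in Ler. It was lower in Sha by -4.77 with salt and -2.10 without, and the difference of the responses was -2.67 (adjusted p = 0.00043). BG3, a second beta-1,3-glucanase, was lower in Sha by -2.59 with salt and -3.62 without. GRXC9, a glutaredoxin that binds TGA factors, rose by 3.26 in Sha and 3.69 in Ler.

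**Figure D4:**
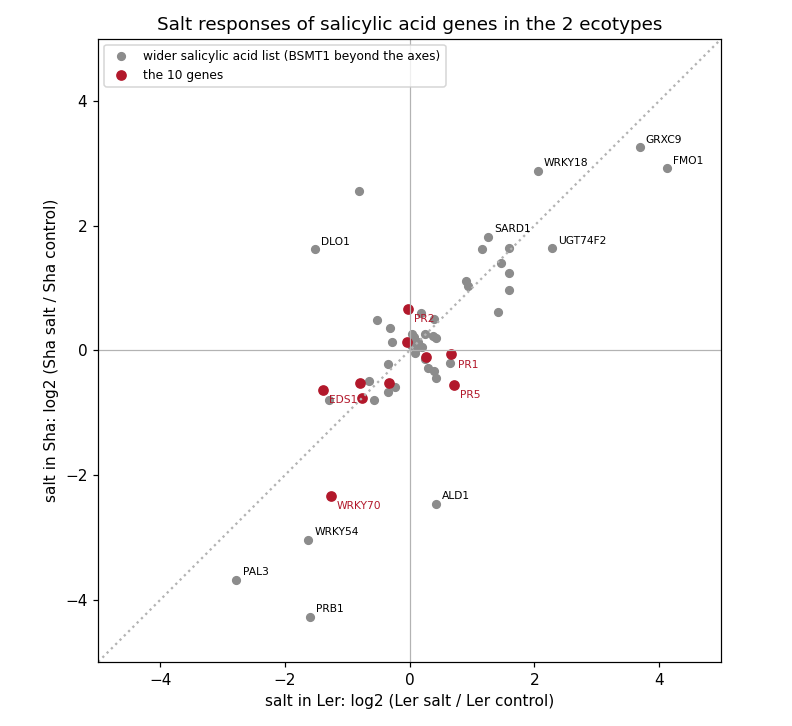
The log2 salt change in Sha (vertical axis) against that in Ler (horizontal axis) for the 10 genes (red) and the tested genes of the wider list (grey), with a dotted line where both are equal. BSMT1, at 9.63 and 9.86, lies beyond the axes, while ALD1 and PRB1 lie below the line and DLO1 above it.

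The loci most like PR1 and WRKY70 over the 8 arrays were found by Pearson correlation of the brightest probes, given here as a description. For PR1, 81 loci had a correlation of at least 0.99, headed by AT3G47030 (r = 0.9989), AT2G27130 (0.9987), AT1G35320 (0.9987), AT2G25355 (0.9984) and AT2G40010 (0.9984). AT3G47030 and AT2G40010 were well above background on 4 of 8 arrays, so their correlations rest in part on signals at background. The arrays fall into Sha and Ler for this gene, and the points share that split. For WRKY70, 41 loci reached 0.99, headed by PLSP1 (AT3G24590, r = 0.9983), AT3G51230 (0.9979), MYB25 (AT2G39880, 0.9976), AT4G00780 (0.9974) and AT3G52360 (0.9973). In MYB25, for example, mean log2 signals were -4.54 in Sha with salt, -2.43 in Sha without, -2.51 in Ler with salt and -1.22 in Ler without, the same order of groups as WRKY70.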

How the data were processed

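RNA from leaves of Sha and Ler was measured on 8 one-colour Agilent arrays, 2 for each of 4 groups. The authors deposited intensity values from Agilent Feature Extraction 10.7.1.1, corrected for background within each array and not scaled between arrays. The deposited matrix of the series was identical to these signals on 8 of 8 arrays. The labels give 12 h of light at 22 and 18 °C, whereas the methods give a longer day.

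There were 43603 non-control probes, of which 31 were dropped for outlier spots, and 0 spots were saturated. The log2 signal was taken relative to the 75th percentile of the array. A probe was tested if, in 1 group or more, both arrays were well above background (34659 probes). The model in limma 3.58.1 (R 4.3.3) had 4 groups, with 4 residual degrees of freedom, a prior of 1.95 and Benjamini-Hochberg adjustment over all probes. The code was tested on simulated data with noise drawn independently for each array, which leaves out the correlation within slides. The brightest tested probe stands for a gene, and all probes of the 10 genes are given. Precision is limited by having 2 arrays per group. Names came from the RefSeq TAIR10.1 gene table, and since the array was annotated on an earlier build no coordinates are given. Probe sequences were not used here. The series held arrays of Sha and Ler only, with none of Col, another ecotype of the study.

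All 10 genes were named, with the 3 largest called changes in each direction of the wider list for each comparison and other genes of that list were chosen after their values were seen. The genes, lists and tests were chosen with earlier results of these data known. ADR1-L1 had no tested probe. Alternatives were quantile normalization, median scaling, normexp with an offset of 50, other background filters, a fit restricted to the compared arrays, an intensity trend, unadjusted p under 0.01, blocks for replicate and slide (statmod 1.5.0, correlation 0.54 within slides), the mean of a gene's probes, and each array left out. Python 3.11.15, numpy 2.4.6, pandas 2.3.3 and matplotlib 3.10.9 made tables and figures.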

Additional observations from a re-analysis of the deposited data

Results flagged for a closer look

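For 2 of the 10 genes, the test of the difference between the salt responses of Sha and Ler passed the adjusted p and the 2-fold limit. PR5 fell with salt in Sha and rose in Ler, and the difference of the responses (Sha minus Ler) was -1.26 on the log2 scale by limma (SE 0.11, adjusted p = 0.0017). It was -1.38 over the replicate 1 arrays and -1.14 over the replicate 2 arrays. WRKY70 fell in both ecotypes and more so in Sha, with a difference of -1.06 (SE 0.19, adjusted p = 0.013), which was -0.86 over the replicate 1 arrays and -1.27 over the replicate 2 arrays. Groups of 2 arrays are too small to test a single array as an outlier.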

How the results depend on the processing

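Of 940 values of the 10 genes under 12 alternatives and with each array left out in turn, 915 kept their direction and their side of the threshold, 5 fell short of it, 3 passed it and 17 changed sign, of which 0 were called values. This threshold includes the 2-fold limit. The other background filters, the fit of only the compared arrays and the intensity trend could not change a log2 difference. Nor could the unadjusted p or the blocks for replicate and slide. Leaving out an array outside a comparison could not either, so the direction was fixed in advance in all of these values. By adjusted p alone, 36 results of the 10 genes passed, and 71 of their 679 values under the alternatives did not, 12 of them with normexp, spread over 16 of the 36 results. With the replicate block, the counts stayed at 1 for salt in Sha, 2 for salt in Ler, 4 for Sha vs. Ler with salt, 4 without and 2 for the difference of the responses, and no call of the 10 genes changed. Same-numbered arrays deviated together only in part (r = 0.06 to 0.47 over 6 pairs of groups). Slide as a block, fixed for the salt comparisons and random for the others, also left these counts as they were. Each slide held 1 ecotype, so this block gives no comparison of Sha and Ler within a slide. With each array left out, the count called lower was 1 to 2 for salt in Sha, 2 to 2 for salt in Ler, 4 to 5 for Sha vs. Ler with salt, 3 to 5 without, and 1 to 2 for the difference of the responses. That last count was 1 with normexp correction as well, where WRKY70 had -0.96. WRKY70 had -0.91 without Ler control replicate 2, -1.01 without Ler salt replicate 1 and -0.93 without Sha salt replicate 2.

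The methods give a p limit of 0.01 for genes taken further and 0.05 for the full list of changed genes. They do not say whether either was adjusted. With an unadjusted p under 0.01 the count called higher was again 0 in each comparison. Values near 0 changed sign. For salt in Sha, PR1 was 0.02 with median scaling and 0.08 with normexp, and EDS5 was -0.25 to 0.05 with each array left out (0.05 without Sha salt replicate 1). For salt in Ler, PR2 was 0.02 with median scaling, 0.02 without Ler control replicate 1 and 0.04 without Ler salt replicate 2. There SAG101 was 0.01 with median scaling, 0.03 with the mean of its probes and -0.11 to 0.03 with each array left out (0.03 without Ler salt replicate 2). SAG101 in Sha vs. Ler with salt was 0.01 with the mean of its probes. The difference of the responses of ICS1 was 0.08 with quantile normalization, 0.03 with median scaling, 0.05 with the mean of its probes, and -0.25 to 0.25 with each array left out, with 0.03 without Ler control replicate 1, 0.13 without Ler salt replicate 2, 0.15 without Sha control replicate 1 and 0.25 without Sha salt replicate 2. The cause was not tested.

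Normexp moved the median of all tested probes to -0.21 for Sha vs. Ler with salt (0.00 as reported), to -0.14 without salt (-0.04), to 0.14 for salt in Ler (-0.10) and to -0.09 for the difference of the responses (0.03). The share of called probes that were higher in Sha was 25.5% with salt under normexp, against 46.3% as reported, and 29.1% without salt under normexp and 50.5% under quantile normalization, against 40.2%. For the difference of the responses it was 44.9% under quantile normalization, against 55.6%. A fit of only the arrays compared was not run for the difference of the responses, which needs all 8 arrays.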
